A study of Mus musculus with 100 samples.

Results

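HDAC3 peaks that had no NCoR peak beside them were described in mouse bone marrow-derived macrophages (BMDMs). They were the peaks of the HDAC3 chromatin immunoprecipitation (ChIP-seq) table of vehicle- and KLA-treated cells whose centre lay more than 1000 bp from every peak centre of the matching NCoR table. Of 48502 HDAC3 peaks, 3884 (8.0%) met this rule, and the other 44618 had NCoR within that distance. The study, with 100 labelled samples (50 groups, each a pair), asked how the NCoR/HDAC3 corepressor complex takes part in gene activation by TLR4. HDAC3, NCoR, p65, Fosl2, PU.1, PGC1b, ERK1 and p300 were profiled in Wild type C57Bl6 BMDMs given vehicle (Veh) or KLA, a lipid A that activates TLR4. KLA was given for 6 h by the labels. The NCoR, HDAC3, p65, Fosl2 and PU.1 labels give 6 h for Veh too, the p300 Veh label gives time 0, and those of PGC1b and ERK1 state none. NCoR was also profiled with an ERK inhibitor plus KLA (ERKi_KLA). Acetylation of histone H3 at lysine 27 (H3K27ac) was profiled in BMDMs labelled NCoR flox/flox (called WT, with floxed alleles and no Cre) and NCoR flox/flox, LysMCre (NKO), each with Veh or KLA. LysM drives Cre in the myeloid lineage, so NCoR was deleted in cells that had expressed it. A further H3K27ac experiment used Wild type BMDMs with DMSO, DMSO with KLA, or the HDAC3 inhibitor RGFP966 with KLA. The mice were young adults by the study's methods, and their exact age is not in the labels. The labels call the samples biological replicates without naming the animals, so the p-values measure the spread between these cultures.

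HDAC3 is a histone deacetylase that has little activity on its own. It works within complexes built on the corepressors NCoR and SMRT, whose deacetylase-activating domain binds and activates it, and these complexes are known for holding nuclear receptor targets and inflammatory genes silent in resting macrophages. NCoR itself binds no DNA and is brought to chromatin by factors such as nuclear receptors, NF-kB and AP-1 proteins. p65 is the activating subunit of NF-kB, Fosl2 an AP-1 subunit, PU.1 the ETS factor that opens macrophage enhancers, PGC1b a coactivator, ERK1 a kinase of the MAPK pathway and p300 an acetyltransferase that places H3K27ac.

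The sequences at 7 of the peaks without NCoR are shown, because the results return to them: the 1 with the most HDAC3 tags (Pim3), 1 each at an interferon-stimulated and an interleukin gene where HDAC3 rose with KLA (Mx1, Il1a), 2 where it fell (3930402G23Rik, Ear4), and 2 at tRNA genes. They are the 200 bp around each peak centre on the plus strand of GRCm38.p6 (mm10), and each is named after the gene whose start site is nearest. Capitals mark matches on either strand to C/EBP (TTGCNNAA) or the B box of tRNA genes (GTTCGANNC). The other letters searched had no match in these windows.
Pim3, chr15:88863843-88864042: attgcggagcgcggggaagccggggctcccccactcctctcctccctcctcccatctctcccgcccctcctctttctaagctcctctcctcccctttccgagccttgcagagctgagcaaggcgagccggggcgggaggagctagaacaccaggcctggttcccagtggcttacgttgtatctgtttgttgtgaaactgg
Mx1, chr16:97460362-97460561: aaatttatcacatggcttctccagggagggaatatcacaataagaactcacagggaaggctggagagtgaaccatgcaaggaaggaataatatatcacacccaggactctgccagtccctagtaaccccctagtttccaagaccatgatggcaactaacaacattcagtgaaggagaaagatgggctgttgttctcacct
Il1a, chr2:129316094-129316293: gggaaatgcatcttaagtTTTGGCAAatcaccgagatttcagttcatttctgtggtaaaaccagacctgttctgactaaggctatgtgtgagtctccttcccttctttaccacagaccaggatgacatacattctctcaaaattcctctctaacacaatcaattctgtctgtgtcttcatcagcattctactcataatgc
3930402G23Rik, chr8:10946196-10946395: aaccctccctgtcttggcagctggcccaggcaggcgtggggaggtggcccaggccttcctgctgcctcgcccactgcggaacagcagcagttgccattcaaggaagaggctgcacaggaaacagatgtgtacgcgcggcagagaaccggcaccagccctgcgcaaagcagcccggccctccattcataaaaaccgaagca
Ear4, chr14:51200116-51200315: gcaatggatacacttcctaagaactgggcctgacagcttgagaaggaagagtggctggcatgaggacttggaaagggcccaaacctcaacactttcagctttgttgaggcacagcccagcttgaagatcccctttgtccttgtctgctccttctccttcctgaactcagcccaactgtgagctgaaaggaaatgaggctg
Glycine tRNA gene (nearest gene Hfe2), chr3:96500940-96501139: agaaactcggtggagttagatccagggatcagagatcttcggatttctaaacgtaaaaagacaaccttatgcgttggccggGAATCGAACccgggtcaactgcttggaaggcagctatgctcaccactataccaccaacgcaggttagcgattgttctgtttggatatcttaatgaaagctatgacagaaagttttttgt
Leucine tRNA gene (nearest gene Eef2k), chr7:120835430-120835629: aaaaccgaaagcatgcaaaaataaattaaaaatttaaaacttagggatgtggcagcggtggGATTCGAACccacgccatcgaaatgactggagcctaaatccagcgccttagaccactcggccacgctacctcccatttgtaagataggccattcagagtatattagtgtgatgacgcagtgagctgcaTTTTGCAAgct

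The Il1a and Eef2k windows hold 1 C/EBP match each, and both tRNA windows the B box, the internal promoter element read by RNA polymerase III factors. In the windows of Pim3, Mx1, 3930402G23Rik and Ear4 no searched letters were found. Of 32851 RefSeq promoter windows of the same length, 7.13% held the C/EBP letters and 0.466% the B box.

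Libraries held 4.30 to 21.5 M tags. KLA replicate 2 of HDAC3 stands apart from the other 3 HDAC3 libraries: it had 5.69 M tags against 13.7 to 18.1 M, and 46.5% of its tags lay in the listed peaks against 31.2 to 34.5%. Results that rest on it are given with and without it. Promoters of the macrophage genes Spi1, Cebpa, Csf1r, Itgam, Adgre1 and Lyz2 all carried a PU.1 peak, from 25.4 tags per 10 M at Cebpa to 345 at Itgam. Regions in which H3K27ac was counted lay at 3 of the 6 promoters (Spi1, Cebpa, Itgam). A larger share of cells with HDAC3 at a site and more HDAC3 in each cell cannot be told apart in these bulk libraries.

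The median distance from an HDAC3 peak without NCoR to the nearest NCoR peak was 5824 bp. The distance was 1000 to 2000 bp for 782 peaks (20.1%), 2000 to 5000 bp for 1020, 5000 to 10000 bp for 695, 10000 to 100000 bp for 1298 and more for 89. Around the limit, the peak at Tbccd1 (23.6 mean HDAC3 tags per 10 M), that at Knop1 (22.4) and that at Polr3e (41.9) lay just beyond 1000 bp, while those at Ttc5 (38.4), March6 (34.6) and Dennd2d (11.8) lay just inside it. The division was otherwise wide, since 95.4% of the peaks with NCoR had an NCoR centre within 100 bp.

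No listed NCoR peak did not mean no NCoR tags. A second NCoR table, whose peaks were also called with ERKi_KLA, had a peak within 1000 bp of 444 of the 3884 (11.4%). Its 412 peaks within 500 bp of an HDAC3 peak without NCoR were all called with ERKi_KLA alone. That follows from the rule, which leaves no peak of the main NCoR table there. Their median NCoR level was 14.3 and 17.7 tags per 10 M in the Veh libraries, 21.1 and 19.4 with KLA, and 18.6 and 18.1 with ERKi_KLA. Peaks of the second table beside HDAC3 with NCoR had medians of 45.4 and 54.1 with Veh, 51.0 and 50.5 with KLA and 22.8 and 21.5 with ERKi_KLA. Over the main NCoR table the 10th percentile was 4.78 and 5.88 with Veh and 15.4 and 15.9 with KLA. No background level was set beside these values. NCoR at the other peaks without it was not measured here, because the NCoR tables list tags for called peaks alone.

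HDAC3 without NCoR lay mostly in introns (1673 peaks, 43.1%) and between genes (1340, 34.5%), as did HDAC3 with NCoR (45.5% and 38.0%). Promoters held 670 peaks (17.3%), against 12.4% with NCoR. In all, 2939 (75.7%) were distal, which here means that the nearest transcription start site (TSS) was over 2 kb away, against 79.6%. The share of HDAC3 peaks that had no NCoR was 7.33% between genes, 7.61% in introns, 10.8% at promoters and 12.3% in 3' UTRs. It was 68.9% at tRNA repeats, where 31 of 45 peaks had no NCoR. The 3884 peaks were spread over 3144 nearest genes, of which 2583 had 1 peak and 11 had 5 or more. Slco3a1 and Pde4b had 7 each, and Foxp1 and Klf4 had 6.

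HDAC3 peaks without NCoR were weak. Their median HDAC3 level was 20.4 and 20.5 tags per 10 M in the Veh libraries and 24.6 and 40.4 in the KLA libraries, and that of peaks with NCoR was 53.8 and 54.7 with Veh and 49.2 and 73.8 with KLA. All 4 libraries gave a lower median without NCoR, and the widths were alike (230 and 233 bp). Peaks without NCoR made up 25.4% of the weakest quintile of all HDAC3 peaks by mean tags, 10.9% of the next, 3.32%, 0.371% and finally 1 peak in the strongest quintile. At distal sites the medians were 16.7 and 17.1 with Veh and 24 and 38.6 with KLA. Near a TSS they were 30.6 and 31.5 with Veh and 26.4 and 42.1 with KLA.

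**Figure D1:**
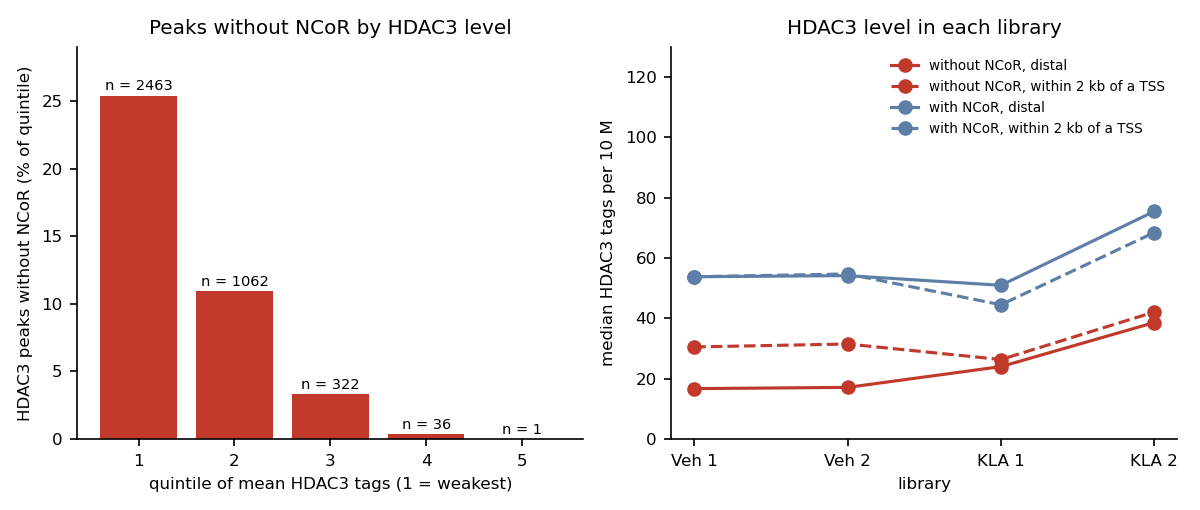
Left, the share of HDAC3 peaks without NCoR (%) in each quintile of mean HDAC3 tags, with the number of such peaks above the bars. Right, the median HDAC3 level (tags per 10 M) in each of the 4 libraries for distal peaks (solid lines) and peaks within 2 kb of a TSS (dashed lines), without NCoR (red) and with NCoR (blue). The share falls from 25.4% in the weakest quintile to 1 peak in the strongest, and the red medians lie below the blue ones in every library.

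The strongest peak without NCoR lay inside Pim3, a survival kinase gene (chromosome 15, 88863736 to 88864148, 1748 bp from the TSS). It held 96.0 and 94.0 tags per 10 M with Veh and 132 and 241 with KLA. The KLA values are both higher, but the log2 fold change of 0.95 ± 0.36 (SE, edgeR quasi-likelihood test, adjusted p = 0.024) is below 2-fold. NCoR was 1485.5 bp away in the main NCoR table and 80 bp away in the ERKi table. Another 6 of the strongest 8 were at the promoters of Slx4ip, Tpm1 (tropomyosin), Mtch2 (a protein of the outer mitochondrial membrane) and Gm3230, in Nepro, and upstream of Klrb1c, with means of 87.9 to 93.6. The peak in Nepro rose with KLA, from 48.7 and 61.9 to 84.4 and 169 (log2 fold change 1.15 ± 0.37, adjusted p = 0.0068). All 8 were called in both conditions.

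Most of the peaks without NCoR were called as peaks only with KLA, which does not mean that HDAC3 was absent with Veh. By the irreproducible discovery rate (IDR), a measure of agreement between replicates, 3333 (85.8%) were called with KLA alone, 340 (8.75%) with Veh alone and 211 (5.43%) in both. Those called with KLA alone had median HDAC3 levels of 16.7 and 17.1 tags per 10 M with Veh and 24.6 and 40.4 with KLA. Of the peaks with NCoR, 44.4% were called with KLA alone and 47.7% in both. Much of this went with low levels: within the weakest quintile, 97.1% of peaks without NCoR and 94.8% of peaks with NCoR were called with KLA alone. In quintile 2 the shares were 76.1% and 75.9%, and in quintile 3 they were 39.8% and 45.9%.

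KLA raised HDAC3 at 1308 of the 3884 peaks without NCoR (33.7%) and lowered it at 236 (6.08%), by an adjusted p under 0.05 and more than a 2-fold change in edgeR's quasi-likelihood test. Over all 48502 HDAC3 peaks tested the shares were 27.5% and 11.3%. The median log2 fold change was 0.67 without NCoR, 0.24 with NCoR and 0.27 over all peaks. Peaks were called in these same libraries, so the direction is tied to the call. Of the 1308 rises 1307 were at peaks called with KLA alone, and of the 236 falls 210 at peaks called with Veh alone. Among peaks called with KLA alone 39.2% rose without NCoR and 54.1% with NCoR (medians 0.91 and 1.26). Among those called with Veh alone 61.8% and 73.4% fell. Distal peaks without NCoR rose in 1176 of 2939 cases (median 0.93) and fell in 193. Within 2 kb of a TSS 132 of 945 rose (14.0%, median 0.17) and 43 fell. With TMM scaling the median of all peaks moved by -0.28 to -0.01, and that of peaks without NCoR was 0.40, with 1327 higher and 344 lower. The median near a TSS then turned to -0.09.

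The count depended on single libraries. Without KLA replicate 2, 1013 peaks were higher and 359 lower, with a median of 0.30 (0.57 distal, -0.19 near a TSS). Without KLA replicate 1 the counts were 1694 and 201. Leaving out Veh replicate 1 gave 700 and 84, and leaving out Veh replicate 2 gave 655 and 78. Strength also bears on the comparison. In the weakest quintile 46.8% of peaks without NCoR and 56.1% of those with NCoR were higher, in quintile 2 11.4% and 30.4%, and in quintile 3 9.94% and 23.6%. At like levels the share that rose was lower without NCoR in each of these 3 quintiles, although it was higher over all peaks.

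**Figure D2:**
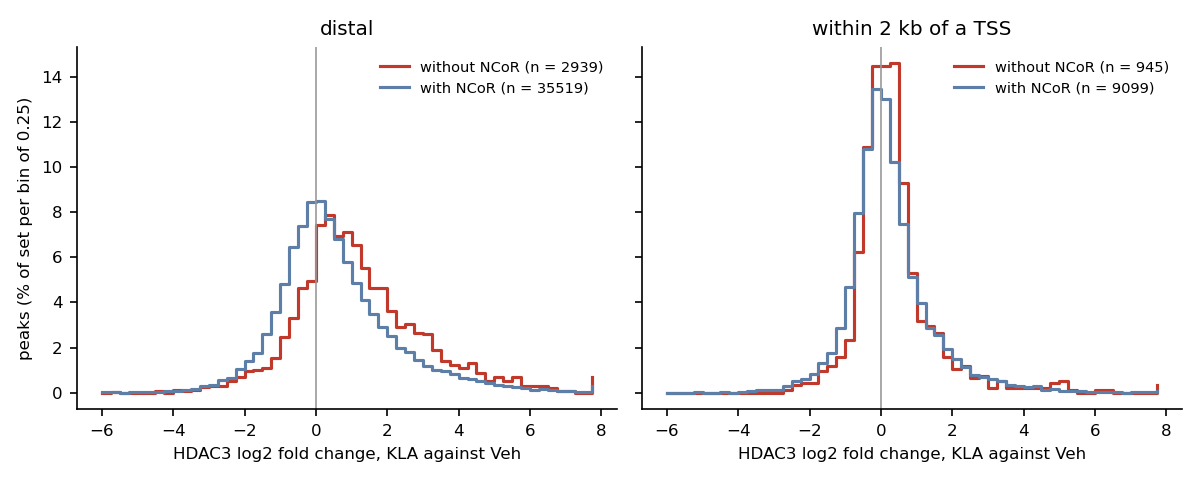
HDAC3 log2 fold change, KLA against Veh, in bins of 0.25 (values beyond the axis are in the end bins), as % of each set, for distal peaks (left) and peaks within 2 kb of a TSS (right), without NCoR (red) and with NCoR (blue). The distal red curve is shifted to higher values (medians 0.93 and 0.30), and near a TSS the curves lie close together (0.17 and 0.08). Of all peaks without NCoR 85.8% were called with KLA alone, and of those with NCoR 44.4%, and the curves are not matched for this.

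The 6 rises with the lowest p-value were at Mx1, Cxcl10, Il1a, Il1bos and, far from any gene, 258195 bp from Mir21c. Inside Mx1, an interferon-induced GTPase gene (chromosome 16, 97460263 to 97460660), 1 tag was counted in each Veh library and 142 and 79 in the KLA libraries, or 0.727 and 0.553 against 83.2 and 139 tags per 10 M. The groups are far apart, with a ratio of 155 (95% interval 42.3 to 1284, counting error only; adjusted p = 2.9e-24 with edgeR). NCoR was 1048.5 bp away in both NCoR tables. The peak upstream of Il1a, which encodes interleukin 1 alpha (chromosome 2, 129316093 to 129316294), held 8.73 and 1.66 tags per 10 M with Veh and 99.6 and 133 with KLA (log2 fold change 4.54 ± 0.50, adjusted p = 1.6e-17). NCoR was 1107.5 bp away in the main table and 5 bp away in the ERKi table.

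Cxcl10, an interferon-induced chemokine gene on chromosome 5, had 2 such peaks. The one past its end (92346520 to 92346803) held 2.18 and 2.76 tags per 10 M with Veh and 80.3 and 137 with KLA, and the one in its last exon (92347140 to 92347452) held 3.64 and 2.21 with Veh and 57.4 and 139 with KLA. They lie 2228 and 1593 bp downstream of the start, where ERK1 was also found with KLA: 0 and 3.47 tags per 10 M with Veh against 62.7 and 57.2 at the first. At Il1bos, the antisense transcript of the interleukin 1 beta gene, HDAC3 went from 1.45 and 5.53 to 61.0 and 151, with none of the 6 other factors within 500 bp. ChIP-seq tags do not tell transcripts apart, so the peak cannot be assigned to Il1bos rather than Il1b.

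Interferon-stimulated genes had 18 peaks without NCoR among 109 HDAC3 peaks (16.5%, against 8.0% of all), at 8 of the 16 genes of the list. All 18 rose with KLA, and they still did without KLA replicate 2. Over all HDAC3 peaks 27.5% were higher, over those without NCoR 33.7%, and over those without NCoR called with KLA alone 39.2%. Of the 1308 rises without NCoR, 1307 were at peaks called with KLA alone, so the peak call and the rise rest on the same libraries. The share that rose among the 91 peaks with NCoR at these genes was not counted. None of the 18 fell (0 by edgeR, 0 at an unadjusted p under 0.05, 0 by DESeq2). They comprised 4 peaks each at Mx1 and at Rsad2, which encodes the antiviral enzyme viperin, 3 at Mx2, 2 each at Ifit1 and Ifit3, and 1 each at Cmpk2, Irf1 and Stat2. Of the 18, 14 lay inside the gene or at its end, and 6 had no other factor within 500 bp. The Veh levels were 0 to 10.2 tags per 10 M and the KLA levels 17.0 to 139. At Ifit3, which encodes an RNA-binding antiviral protein, the stronger peak in the 3' UTR went from 5.82 and 6.08 to 52.7 and 96.6. A peak near Ifit1 with 0 tags in both Veh libraries reached 17.0 and 36.9, at least 23.3-fold higher taking 3 tags over the Veh group as the floor. Stat2, a signal transducer of type I interferon, showed the smallest change of the 18, from 10.2 and 9.40 to 28.7 and 49.2 (log2 fold change 1.93 ± 0.58, adjusted p = 0.0034).

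Inflammatory mediators had 19 peaks without NCoR among 207 (9.18%), at 11 of 20 genes. With KLA 17 rose, 1 fell and 1 was not called, and without KLA replicate 2 these were 16, 1 and 2. Of all HDAC3 peaks 27.5% were higher and 11.3% lower, and of those without NCoR called with KLA alone 39.2% were higher. Here too the peak calls and the changes rest on the same libraries. In an intron of Saa3, an acute-phase protein gene, 0 tags were counted with Veh and 62 and 45 with KLA, which is at least 49.9-fold higher on the same floor. In Il6 (interleukin 6) the intronic peak went from 20.4 and 22.7 to 59.2 and 130 tags per 10 M (log2 fold change 2.08 ± 0.43, adjusted p = 8.7e-06). Past the end of Ccl2, a monocyte chemokine gene, it went from 1.45 and 3.87 to 32.2 and 35.1. The exception was a peak near Cxcl1, a neutrophil chemokine gene, which fell from 59.7 and 58.6 to 19.3 and 17.6 (log2 fold change -1.66 ± 0.47, adjusted p = 0.0016). A peak near Cxcl2 was the one not called, at 9.46 and 19.9 with Veh and 25.2 and 49.2 with KLA.

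**Figure D3:**
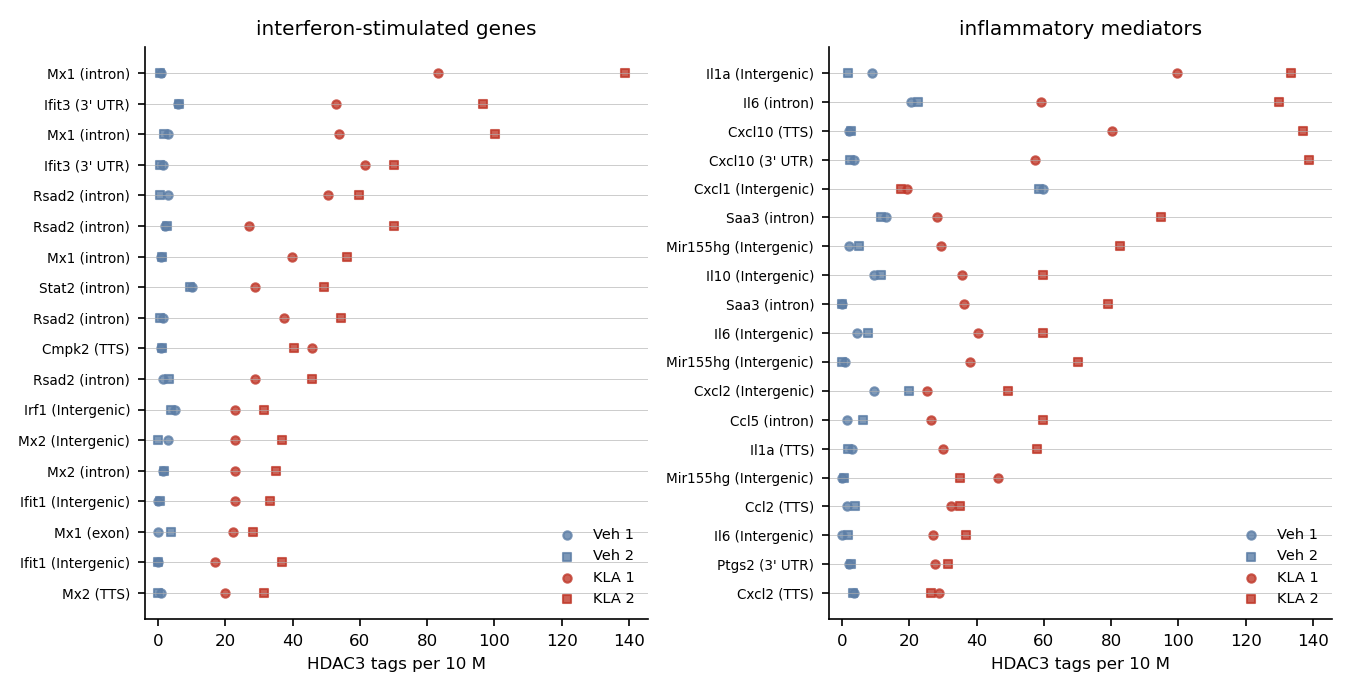
HDAC3 tags per 10 M in each library (blue, Veh 1 and 2; red, KLA 1 and 2) at every HDAC3 peak without NCoR whose nearest gene is in the list of interferon-stimulated genes (left, 18 peaks) or inflammatory mediators (right, 19 peaks), with the annotated position in brackets. By edgeR all 18 peaks on the left were called higher with KLA, and on the right 17 were, with the Cxcl1 peak called lower. Of all HDAC3 peaks 27.5% were called higher.

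For the shorter lists that follow, the same shares of all HDAC3 peaks (27.5% higher and 11.3% lower) are the background, and with 2 to 12 peaks in each list no count is read as particular to it. Of 12 peaks at genes of NF-kB and its feedback, 8 rose and none fell (0 by edgeR and by DESeq2, 0 at an unadjusted p under 0.05). Tnfaip3, which encodes the NF-kB inhibitor A20, had 5 of them, with 3 higher. The strongest lay between genes, nearest to Rela, with 30.6 and 53.6 tags per 10 M with Veh and 69.2 and 89.6 with KLA, and was not called (log2 fold change 0.88 ± 0.40, adjusted p = 0.061). Among 9 peaks at AP-1 and ATF genes 3 rose (Fos, Fosl2, Batf) and 1 fell. The strongest of that list, near Fosb, held 54.6 and 51.4 with Veh and 51.0 and 59.7 with KLA. Other peaks near macrophage lineage genes were 2 higher (Cebpa, Tlr4), 1 lower (Irf8) and 3 not called (2 in Runx1 and 1 near Cd14). Irf8, a factor of the macrophage lineage, went from 54.6 and 50.9 to 14.7 and 5.27 (log2 fold change -2.21 ± 0.51, adjusted p = 0.0001). Without KLA replicate 2 the counts of this list became 0 higher and 1 lower, and Cebpa and Tlr4 were no longer called higher.

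LXR target genes had 2 peaks without NCoR of 78 (2.56%) and clock and Rev-erb genes 6 of 49. These are the classical nuclear receptor targets of the corepressors. A peak in Srebf1, which encodes a regulator of lipid synthesis, had 1 tag in total with Veh and 52 and 25 with KLA, a ratio of 108 (95% interval 18.8 to 4309, counting error only). The Scd2 intron showed no call, with 24 and 22.7 against 17.0 and 38.6. An intron of the clock gene Nr1d2 (Rev-erb beta) rose from 11.6 and 6.08 to 70.3 and 75.5, and an intron of Tef, a clock output factor, fell from 53.1 and 53.1 to 13.5 and 19.3. Corepressor genes had 6 peaks. Of 4 near Tbl1xr1, a subunit of the NCoR complex, 2 rose, and the other two and those near Bcl6 and Coro2a were not called. The strongest was near Bcl6, at 27.6 and 32.6 with Veh and 41.6 and 56.2 with KLA.

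The 6 falls with the lowest p-value were in the 3' UTR beside Mir6957, near 3930402G23Rik, near Ear4, at 2 sites near Tgif1 and near Mir1947. All 6 were called with Veh alone. Near 3930402G23Rik (chromosome 8, 10946167 to 10946423) HDAC3 went from 152 and 129 tags per 10 M to 16.4 and 7.02 (log2 fold change -3.41 ± 0.44, adjusted p = 5.1e-13). PU.1 at the same site went from 110 and 149 to 18.3 and 19.1 (log2 fold change -2.78 ± 0.19, adjusted p = 8.8e-28) and Fosl2 from 190 and 110 to 0 and 18.7. Near Ear4, a ribonuclease gene (chromosome 14, 51200103 to 51200327), HDAC3 went from 56.7 and 60.8 to 3.52 and 0, and p300 from 30.7 and 38.1 to 3.58 and 7.57. By Mir6957, 203 tags were counted with Veh and 3 with KLA, a ratio of 0.0207 (95% interval 0.00423 to 0.0613, counting error only). Near Mir1947 the loss was shared by HDAC3 (103 and 89.0 to 11.1 and 14.0), p65 (49.0 and 80.2 to 13.4 and 8.21), PU.1 (289 and 295 to 73.3 and 56.7) and PGC1b (53.5 and 45.1 to 0 and 8.0). The ERKi table had an NCoR peak 54.5 bp from the peak at Mir1947 and 38.5 bp from that at Ear4.

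Where a rise fell within the gene differed by class. Among peaks at gene ends or in 3' UTRs 55 of 123 rose (44.7%), against 24.6% of such peaks with NCoR. In introns the shares were 40.3% and 28.5%, between genes 39.0% and 30.7%, and at promoters 5.52% (37 of 670) and 11.6%. These shares were not matched for HDAC3 level or for the condition of the peak call.

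At promoters, the share of HDAC3 peaks without NCoR differed between gene groups. These shares were not matched for HDAC3 level. Mitochondrial ribosomal protein genes had 13 of 39 promoter peaks without NCoR (33.3%) and replication-dependent histone genes 5 of 13 (38.5%), against 10.8% of all promoter peaks. Genes matched by an Rpl or Rps name had 10 of 49 (20.4%). The match was by name alone, and it took in Rpl7l1 and Rps19bp1 beside genes of cytoplasmic ribosomal proteins. Zinc finger genes named Zfp had 11 of 110 (10.0%), proteasome subunit genes 2 of 24 and complex I genes 1 of 15. Over all 670 promoter peaks without NCoR, KLA raised 37 and lowered 28 by edgeR. DESeq2 gave 26 and 42, so the order depends on the method. Over the 945 peaks without NCoR within 2 kb of a TSS the median log2 fold change was 0.17, and -0.19 without KLA replicate 2. By edgeR 1 of the mitochondrial ribosomal group rose and 1 fell, 1 of the Rpl and Rps group fell, and 2 of the histone group fell. None of the other 14 was called by edgeR or reached an unadjusted p under 0.05, while DESeq2 called 1 complex I peak (Ndufb7) lower. HDAC3 levels were 22.6 to 81.8 tags per 10 M in the mitochondrial ribosomal group and 32.6 to 73.8 in the Rpl and Rps group.

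The tRNA genes, which RNA polymerase III transcribes, were a further place where most HDAC3 peaks had no listed NCoR peak, although 14 of the 45 did. The 31 peaks centred on an annotated tRNA repeat had mean levels of 22.9 to 58.5 tags per 10 M with a median of 40.3, above the 27.5 of all peaks without NCoR, and 13 of them lay on chromosome 13. The median NCoR distance was 7882 bp. KLA raised 3 of the 31 and lowered 0 by edgeR (4 and 0 at an unadjusted p under 0.05, 1 and 0 by DESeq2), and without KLA replicate 2 the counts were 1 and 1. Of all HDAC3 peaks 27.5% were higher and 11.3% lower, and of those without NCoR 33.7% and 6.08%. The strongest, a glycine tRNA gene on chromosome 3 (96500922 to 96501157, nearest gene Hfe2), held 60.4 and 71.9 with Veh and 44.0 and 58.0 with KLA. A leucine tRNA gene on chromosome 7 (nearest gene Eef2k) held 40.7 and 52.5 with Veh and 29.9 and 87.8 with KLA. These 2 were chosen after their values were seen. The B box letters printed above for both were in 71.0% of the 31 windows and in 64.3% of the 14 with NCoR. Of the 31, 11 had a p65 peak within 500 bp, 7 ERK1, 6 PU.1, 6 PGC1b, 3 p300 and 1 Fosl2, and 10 had none of them. Peaks annotated as tRNA made up 0.0928% of the HDAC3 table and 0.0127% of the NCoR table, and between 0.0032% (Fosl2) and 0.0823% (ERK1) of the other factor tables.

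Sequence composition differed near promoters. Within 2 kb of a TSS the 200 bp windows without NCoR had a median GC content of 60.5% and 13 CpG dinucleotides, against 56.0% and 8 with NCoR. Distal windows had 45.0% and 2, against 45.5% and 2. Near a TSS the YY1 letters (AAGATGGCG) were in 4.97% of windows without and 1.33% with NCoR, NRF1 (GCGCATGCG) in 3.70% and 1.40% and SP/KLF (GGGCGGGG) in 22.4% and 18.8%. The same comparison among the weaker 40% of HDAC3 peaks gave 4.74% and 1.52% for YY1 and 3.97% and 1.40% for NRF1. All promoter windows of RefSeq held these letters in 0.749%, 1.48% and 15.6%. At distal peaks the nuclear receptor half-site (AGGTCA) was in 10.8% without and 15.4% with NCoR, and in 10.9% and 14.2% among the weaker 40%. It was in 11.2% of promoter windows. The RORE letters (TAGGTCA), which contain the half-site, were in 1.74% and 2.64% of distal windows and in 1.81% of promoter windows.

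Letters also differed between peaks that moved in opposite directions with KLA. Of the 236 peaks without NCoR that fell, 15.7% held PU.1 (GAGGAAGT) and 11.9% AP-1 (TGANTCA), and of the 1308 that rose 5.73% and 20.9%. For peaks with NCoR the shares were 15.9% and 14.0%, and 5.95% and 25.1%. The half-site was in 7.20% of the falling peaks without NCoR and in 20.7% of those with NCoR. IRF letters (GAAANNGAA) were in 16.6% of rising peaks without and 19.4% with NCoR. Promoter windows held PU.1 letters in 2.13%, IRF in 5.47% and AP-1 in 5.48%.

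Over all HDAC3 peaks, other factors were found less often at those without NCoR. A p300 peak lay within 500 bp of 59.0% of them (87.6% with NCoR), p65 of 48.9% (81.2%), PU.1 of 41.9% (69.1%), PGC1b of 31.1% (60.7%), ERK1 of 19.8% (51.9%) and Fosl2 of 18.7% (60.1%). None of the 6 was near 497 (12.8%), against 2.56% with NCoR, and all 6 were near 49 (1.26%) against 29%. The commonest combination was p65 with p300 (404 peaks). In the weakest quintile the differences were smaller, at 29.5% and 29.6% for PU.1, 22.2% and 25% for PGC1b, 46.1% and 63.9% for p65, and 12.2% and 22.1% for Fosl2. In quintile 2 the shares were higher without NCoR for PU.1 (62.5% and 57.1%) and close for PGC1b (44.0% and 43.4%), while p65 (52.4% and 68.5%), p300 (61.5% and 78.9%), ERK1 (28.0% and 31.5%) and Fosl2 (28.0% and 39.9%) were lower. Peaks that rose with KLA lacked all 6 factors in 20.3% of cases, those that fell in 1.27% and those not called in 9.79%. With NCoR these were 4.61%, 1.66% and 1.82%.

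**Figure D4:**
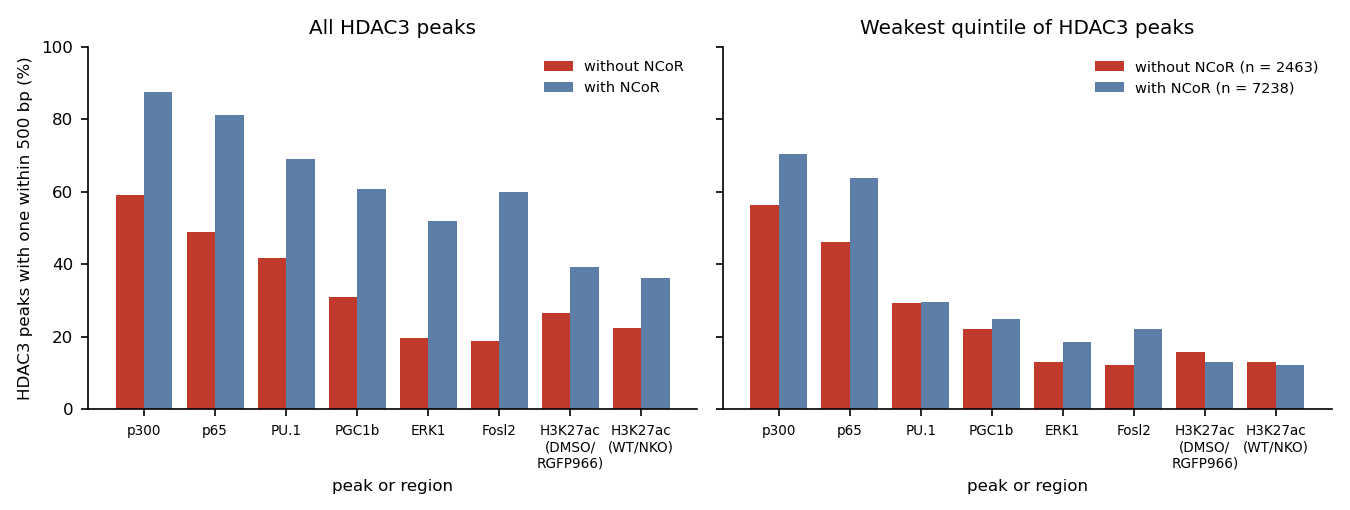
Share (%) of HDAC3 peaks without NCoR (red) and with NCoR (blue) that had a peak of each factor or an H3K27ac region within 500 bp, for all HDAC3 peaks (left) and for the weakest quintile of HDAC3 tags (right). An H3K27ac region is an ATAC-seq region in which H3K27ac was counted, whatever its level. The bars differ for every factor on the left, and those of PU.1 are 29.5% and 29.6% on the right.

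Factor peaks called beside a changed HDAC3 peak without NCoR were mostly called in the direction of HDAC3. Next to HDAC3 peaks that rose, 671 of 748 p65 peaks were called higher and 2 lower, and next to those that fell 1 was higher and 40 of 106 lower. For p300 the counts were 685 of 800 higher and 7 lower beside rising HDAC3, and 2 higher and 118 of 190 lower beside falling HDAC3. PU.1 was called higher at 37 and lower at 6 of 192 peaks beside rising HDAC3, and at 0 and 131 of 192 beside falling HDAC3. PGC1b was higher at 127 of 223 and lower at 33 of 125, and ERK1 at 54 of 172 and 7 of 69. Of all p65 peaks 57.0% were higher and 5.43% lower, of all p300 peaks 42.1% and 12.9%, and of all PU.1 peaks 4.53% and 21.7%. For PGC1b these were 16.4% and 6.35%, and for ERK1 10.3% and 2.53%. The same counts beside changed HDAC3 peaks with NCoR were not made, so the shared direction is not read as particular to peaks without NCoR. The libraries of the factors are separate from those of HDAC3. The median log2 fold change beside rising and falling HDAC3 was 3.19 and -0.71 for p65, 2.87 and -1.42 for p300, 0.53 and -1.32 for PU.1 and 2.23 and -1.80 for Fosl2. At the Il1a peak printed above, p65 went from 7.0 and 3.73 to 276 and 312 tags per 10 M, Fosl2 from 0 and 3.15 to 112 and 317, and p300 from 13.8 and 29.6 to 180 and 205.

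Over all factor peaks beside HDAC3 without NCoR, p65 was higher at 991 of 1911 (51.9%) and lower at 111 (57.0% and 5.43% of all p65 peaks). For p300 they were 995 and 297 of 2336 (42.1% and 12.9% of all), for PU.1 49 and 268 of 1664 (4.53% and 21.7%), for PGC1b 177 and 65 of 1213 (16.4% and 6.35%), for ERK1 65 and 13 of 772 (10.3% and 2.53%) and for Fosl2 68 and 28 of 725 (11.4% and 4.19%). These shares are near those of all peaks of each factor. The split depends on the scaling: with TMM it was 497 and 488 for p65, 789 and 606 for p300, 144 and 129 for PU.1, 52 and 21 for ERK1 and 85 and 63 for Fosl2. TMM moved the median of all peaks by -1.22 for p65, -0.52 for p300, 0.42 for PU.1, -0.20 for ERK1 and -0.11 for PGC1b. By library totals the p65 median beside HDAC3 without NCoR was 1.42 against 1.46 over all p65 peaks.

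Position separated the p65 and p300 changes. At distal peaks beside HDAC3 without NCoR the median p65 level was 7.88 and 9.32 tags per 10 M with Veh and 30.7 and 32.8 with KLA, and 919 of 1457 peaks were higher and 39 lower. Within 2 kb of a TSS it was 35.0 and 38.2 with Veh and 28.0 and 32.8 with KLA, with 72 of 454 higher and 72 lower. With NCoR the TSS counts were 2335 and 485 of 6923. By DESeq2, which scales by size factors, the p65 calls near a TSS were 27 higher and 305 lower without NCoR, and 855 and 2856 with NCoR, and the distal calls without NCoR 428 and 176. The direction near a TSS thus depends on the scaling. For p300 the distal counts were 935 and 210 of 1906 and the TSS counts 60 and 87 of 430, with medians of 32.0 and 31.2 with Veh and 25.6 and 24.3 with KLA near a TSS. DESeq2 gave 694 and 348 distal and 41 and 206 near a TSS.

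Single libraries decided several of these totals. The p65 total of 1102 was 462 without KLA replicate 1 and 433 without KLA replicate 2. For PGC1b 242 became 107 and 105 without Veh replicate 1 or 2, and 378 without KLA replicate 2. For p300 the 297 lower peaks became 196 and 185 without KLA replicate 1 or 2. For ERK1 78 became 22 and 18 without KLA replicate 1 or 2. For Fosl2 96 became 206 and 350 without KLA replicate 1 or 2, and 0 without Veh replicate 1 or 2, where edgeR gave 53 higher and 5 lower, and 47 and 13, at an unadjusted p under 0.05 (DESeq2 was not run without single libraries). Fosl2 with KLA also differed between replicates, with 16.4% and 32.3% of tags in the listed peaks.

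Regions of the WT and NKO table in which H3K27ac was counted lay within 500 bp of 868 of the 3884 peaks (22.3%), against 36.4% with NCoR. They are ATAC-seq regions, so these shares give overlap with listed regions and not how many peaks were acetylated. At like HDAC3 levels the order turned: the shares without and with NCoR were 13.0% and 12.3% in the weakest quintile, 34.8% and 25% in quintile 2, 47.2% and 32.8% in quintile 3 and 69.4% (of 36 peaks) and 42.3% in quintile 4. Peaks without NCoR were also distal less often in quintiles 2 to 4. Over all levels the difference was at distal sites, 9.39% against 29.9%, while within 2 kb of a TSS the shares were 62.6% and 61.8%. Of the 931 regions concerned, 690 had enough tags to be tested, and of the 278 distal ones 127 did. KLA raised 19 in WT and lowered 16 (2.75% and 2.32%, against 6.49% and 3.72% of all regions). With TMM, which moved the median of all regions by -0.14, these were 14 and 29. Without WT Veh replicate 2 the total of 35 became 23, and without either WT Veh replicate 8 were lower. The lowest p among the rises was at Abca7, a lipid transporter gene, with 25.2 and 21.4 tags per 10 M with Veh and 77.3 and 82.7 with KLA in WT (log2 fold change 1.78 ± 0.28, adjusted p = 6.5e-06) and 29.5, 34.8, 43.5 and 48.6 in NKO. Among the falls it was at the Tef promoter, from 93.9 and 82.5 to 26.4 and 33.8 (log2 fold change -1.55 ± 0.25, adjusted p = 7.3e-06), where NKO went from 114 and 103 to 28.1 and 24.3. The HDAC3 peak there was not called, at 39.3 and 43.7 with Veh and 21.7 and 59.7 with KLA.

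Few of these H3K27ac regions differed between NKO and WT. With Veh 4 were higher in NKO and 0 lower by edgeR (0.973% and 0.027% of all regions tested; at an unadjusted p under 0.05, 89 and 8; by DESeq2, 0 and 0). With TMM, which moved the median of all regions by -0.30, the count was 0 (20 and 29 unadjusted), and it was 0 without WT Veh replicate 1 (47 and 2), WT Veh replicate 2 (64 and 3) or NKO Veh replicate 1 (43 and 4). The lowest p was at the promoter of 2210016F16Rik, with 17.0 and 8.15 tags per 10 M in WT and 35.4 and 40.6 in NKO (log2 fold change 1.62 ± 0.40, adjusted p = 0.020). With KLA 1 was higher and 5 lower (0.4% and 0.389% of all), with TMM 3 and 4. The total of 6 became 2 without WT Veh replicate 1, WT Veh replicate 2 or NKO KLA replicate 1, and 0 without WT KLA replicate 2 or NKO KLA replicate 2 (at an unadjusted p under 0.05, 23 higher and 41 lower, and 17 and 39). The region higher in NKO with KLA was near Proser2, with 8.17 and 4.83 in WT and 20.7 and 27.8 in NKO. The one lower with the lowest p was in Tln2, which encodes talin 2, a cytoskeletal linker, with 67.3 and 79.3 in WT and 26.5 and 27.8 in NKO (log2 fold change -1.43 ± 0.31, adjusted p = 0.0083). The groups did not overlap at either, and how often that holds over all regions was not counted. The HDAC3 peak beside the Tln2 region had a log2 fold change of 1.39 with KLA, and that beside Proser2 -2.10.

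With the HDAC3 inhibitor H3K27ac changed in opposite directions by position. This was a separate experiment, with a median of 39.7 tags per 10 M beside HDAC3 without NCoR against 11.6 in the WT and NKO table. The regions named from it are also wider than those named from the WT and NKO table, so these medians do not compare signal alone. The counts of this experiment are therefore not set against those of NKO. Of 1002 tested H3K27ac regions beside HDAC3 without NCoR, 201 were higher and 174 lower with RGFP966 and KLA than with DMSO and KLA (20.1% and 17.4%, against 26.9% and 9.53% of all regions). At distal sites 176 of 417 were higher and 6 lower, and the median level was 12.3 and 11.8 tags per 10 M with DMSO and KLA and 24.4 and 22.4 with RGFP966 and KLA. With DMSO alone it was 21.6 and 21.8, so the level with the inhibitor and KLA was near that of cells without KLA. Within 2 kb of a TSS 25 of 585 were higher and 168 lower, and the medians were 69.0 and 55.5, and 45.4 and 39.3. With DMSO alone they were 73.1 and 73.3. The shares were 42.2% higher and 1.44% lower at distal sites and 4.27% and 28.7% near a TSS. Beside HDAC3 with NCoR they were 40.3% and 0.458%, and 8.09% and 21.1%, and medians that were higher in every library. With TMM, which moved the median of all regions by -0.34, the split was 116 and 315, and DESeq2 gave 104 and 300, so the order of higher and lower over all positions depends on the scaling. By position DESeq2 called 94 regions higher and 11 lower at distal sites and 10 and 289 near a TSS. Without DMSO KLA replicate 1, 110 regions were lower. The order also turned without DMSO KLA replicate 2 (169 and 249) and without RGFP966 KLA replicate 1 (148 and 226). Of all tested regions beside HDAC3, 17.4% were lower without NCoR and 6.62% with NCoR. Regions near a TSS made up 585 of the 1002 without and 4922 of the 16499 with NCoR, and the share lower was larger without NCoR within each position too.

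The rise with the lowest p-value was beside the Ear4 peak printed above, where KLA lowered HDAC3. H3K27ac held 31.6 and 27 tags per 10 M with DMSO, 10.4 and 15.1 with DMSO and KLA and 102 and 88.1 with RGFP966 and KLA (log2 fold change 2.92 ± 0.31, adjusted p = 3.4e-18). The fall with the lowest p-value was at the promoter of Slc35e1, a solute carrier gene, with 65.6 and 53.2 with DMSO, 193 and 160 with DMSO and KLA and 37.5 and 37.9 with RGFP966 and KLA (log2 fold change -2.23 ± 0.25, adjusted p = 6.3e-17). Beside HDAC3 peaks that fell with KLA 41 of 105 H3K27ac regions were higher with the inhibitor and 3 lower. Beside those that rose the counts were 5 and 2 of 44, and beside those not called 155 and 169 of 853. Of all regions 26.9% were higher and 9.53% lower, and of distal regions beside HDAC3 without NCoR 42.2% and 1.44%. Most of the falling HDAC3 peaks were distal (193 of 236), and these counts were not divided by position.

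**Figure D5:**
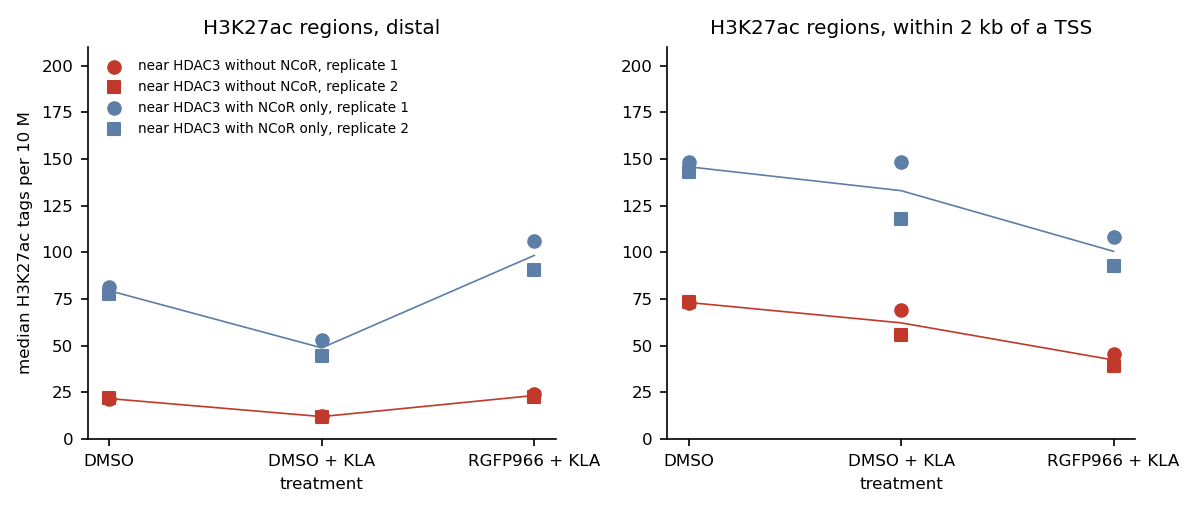
Median H3K27ac tags per 10 M in each library of the inhibitor experiment at regions within 500 bp of HDAC3 peaks without NCoR (red) or of HDAC3 peaks with NCoR only (blue), distal (left) and within 2 kb of a TSS (right); points are the 2 replicates and lines join their means. The distal red medians go from 12.3 and 11.8 with DMSO and KLA to 24.4 and 22.4 with RGFP966 and KLA, and those near a TSS from 69.0 and 55.5 to 45.4 and 39.3. With DMSO alone they are 21.6 and 21.8 distal, and 73.1 and 73.3 near a TSS.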

How the data were processed

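Processed tables of ChIP-seq from mouse BMDMs were used, 11 tables with 48 libraries. The authors aligned reads with Bowtie2 to mm10 and called factor peaks with HOMER, keeping those reproducible by IDR between replicates and merging conditions. H3K27ac was counted over ATAC-seq regions (versions not given in the sources used here). The deposited values are raw tag counts per peak, and the library totals are in the column headers. Tags per 10 M are counts divided by that total. Factors were fixed with DSG and formaldehyde, H3K27ac with formaldehyde alone.

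HDAC3 peaks were divided by the distance between peak centres to NCoR, and other tables were matched within 500 bp. Features with at least 4 tags in 1 library (16 for H3K27ac) were tested with edgeR 4.0.16 (R 4.3.3), 1 quasi-likelihood fit per table with library totals as sizes, at a Benjamini-Hochberg adjusted p under 0.05 and more than 2-fold. SE is the log2 fold change divided by the root of F. The fit was tested on simulated data. Count ratios have 95% exact intervals, which cover counting error only, and the floor for 0 is 3 tags. With 2 libraries a group, an exact permutation test of 1 value cannot go below p = 0.333, so none was used.

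Named peaks are the 8 with most tags, the 6 with the lowest p in each direction, the strongest per gene list, the 3 on each side of the distance limit, and for H3K27ac the lowest p in each direction. The members and gene lists were chosen with earlier results of these data known, and the tRNA peaks, the B box and further genes named within a list after values were seen. Replicates with the same number did not pair: 16 correlations of their deviations lay between -0.027 and 0.088. Coordinates fit GRCm38.p6, since all 48493 peaks on the numbered chromosomes and X end inside it. Sequences and promoters are from RefSeq, searched for 17 motifs and the B box on both strands. Windows with long untranslated stretches were not printed. Alternatives were TMM, DESeq2 1.42.0, a replicate block, other distances and filters, and leaving out each library. Some peaks chosen by the rule are not reported here.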

Additional observations from a re-analysis of the deposited data

How the results depend on the processing

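The order of higher and lower calls turned for 5 comparisons. PU.1 (49 higher, 268 lower) became 144 and 129 with TMM, 143 and 130 with DESeq2 size factors and 143 and 131 with the DESeq2 Wald test. In the same order, RGFP966 (201 and 174) became 116 and 315, 125 and 301, and 104 and 300, and H3K27ac with KLA in WT (19 and 16) became 14 and 29, 14 and 29, and 14 and 24. Fosl2 (68 and 28) became 85 and 91 with size factors and 82 and 89 with the Wald test, and 80 and 270 without KLA replicate 2. p65 (991 and 111) became 455 and 481 with the Wald test. RGFP966 also turned without 1 library, as given above, as did the uncalled HDAC3 median near a TSS with TMM and without KLA replicate 2. Within the HDAC3 calls, the order at promoters without NCoR also turned, from 37 and 28 to 26 and 42 with the Wald test. Of the total counts of called peaks, 142 values stayed within 1.5 times the main count and 36 did not, and of the other values 285 stayed and 90 did not. The causes were not tested. The 96 Fosl2 peaks beside HDAC3 without NCoR became 148 with TMM, 176 with DESeq2 size factors, 171 with the DESeq2 Wald test and 36 with the replicate block. The 78 ERK1 peaks became 41 with the block and 48 with an NCoR distance of 2000 bp. The 35 H3K27ac regions called with KLA in WT became 60 with an NCoR distance of 500 bp and 54 with a match distance of 1000 bp. The 4 of NKO against WT with Veh became 0 with TMM, 0 with DESeq2 size factors, 0 by the Wald test of DESeq2 (unadjusted, 15 higher and 25 lower) and 2 without peaks near NCoR of the ERKi table. The 6 with KLA became 2 without those peaks and 3 with a match distance of 100 bp. The block gave 1530 HDAC3 peaks, 913 for p65, 318 for PU.1, 228 for PGC1b, 1213 for p300, 34 for H3K27ac with KLA, 3 and 5 for NKO with Veh and KLA, and 377 for RGFP966, which are all within 1.5 times the main counts. The samples share only a replicate number, so the block does not describe a pairing. Leaving out 1 library gave 733 to 1895 for HDAC3, 433 to 1239 for p65, 0 to 350 for Fosl2, 318 to 339 for PU.1, 105 to 378 for PGC1b, 18 to 104 for ERK1 and 944 to 1344 for p300. For H3K27ac the ranges were 23 to 42 with KLA in WT, 0 to 5 and 0 to 7 for NKO with Veh and KLA, and 317 to 418 for RGFP966. A lone library was then assumed to vary like the other group. Peaks without NCoR had a median of 27.5 tags per 10 M against 58.0 with NCoR, and the part of depth in the calls was not tested.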
